A study of Homo sapiens with 10 samples.

Results

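This report follows 10 genes of protein folding and stress signaling in the endoplasmic reticulum (ER), out of 35606 gene entries measured by RNA-seq in the line QGP-1. QGP-1 is an established human cell line from a pancreatic neuroendocrine tumor. The genes were matched by symbol, from a list drawn up with earlier results of these data known: *HSPA5*, *HSP90B1*, *CALR*, *CANX*, *PDIA4*, *DNAJB9*, *SDF2L1*, *HERPUD1*, *XBP1* and *ATF6*. Each symbol was found in both deposited tables, and all 10 genes passed the filter on low values. The 10 samples fall into 5 groups of 2. The knockdown table holds CRISPR interference (CRISPRi) cells, in which a nuclease-dead Cas9 joined to a KRAB repressor is directed by the control guide sgNC or by sgPIKFYVE-1, a guide against the lipid kinase gene *PIKFYVE*. The drug table holds cells given DMSO, cells given 1 µM apilimod, a PIKfyve inhibitor, and cells given 100 nM Torin-1, an inhibitor of the kinase mTOR. The labels give 24 h for both drugs, whereas the study's text gives a shorter time. Only sgPIKFYVE-1 was used to lower the gene, and nothing in the labels says that the 2 samples of a group were separate cultures, so p-values measure the spread between these samples, which may be technical. All values are given on the CPM scale, that is, relative to library size, as a signal that the authors normalized separately in the 2 tables, so levels from different tables are set side by side but not tested against each other.

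Proteins that enter the secretory pathway fold in the ER with the help of chaperones and of enzymes that form disulfide bonds. When unfolded proteins build up, the membrane sensors IRE1, PERK and ATF6 start the unfolded protein response: IRE1 splices the *XBP1* mRNA into the form that encodes an active transcription factor, ATF6 is cut in the Golgi to release its own transcription factor, and PERK slows translation and favors synthesis of ATF4. XBP1 and ATF6 act on promoters through the ER stress response element (ERSE), with targets among chaperones and the genes of ER-associated degradation. Neuroendocrine cells make large amounts of secreted protein and depend on this machinery. Values summed per gene do not show which form of the *XBP1* mRNA was present, nor whether ATF6 was cut.

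The promoters of the 10 genes are shown because their ERSE matches part the genes in a way that the expression values can be set against. Windows of 300 bases, 250 before and 50 after each transcript start, were taken from RefSeq on GRCh38.p14; all 10 genes matched, with 15 windows. Each window was searched on both strands for the ERSE, CCAAT and CCACG separated by 9 bases, and for its second form, ERSE-II, ATTGG and CCACG separated by 1 base. An ERSE with exactly these letters was found in 27 of 35116 windows (0.0769%) and an ERSE-II in 19 (0.0541%). *HSPA5*, *HSP90B1*, *CALR*, *CANX* and *XBP1* held an ERSE, and *SDF2L1* and *HERPUD1* held an ERSE-II. The windows of *PDIA4*, *DNAJB9* and *ATF6* held neither, which says only that these letters are not in these windows. The matches, with 5 flanking bases on each side, read as follows on the strand of the gene, with both parts of the motif in capitals (CGTGG and ATTGG, or CGTGG and CCAAT, where the match lies on the opposite strand).
HSPA5: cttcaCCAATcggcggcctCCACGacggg
HSP90B1, far match: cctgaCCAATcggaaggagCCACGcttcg
HSP90B1, near match: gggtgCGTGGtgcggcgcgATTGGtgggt
CALR: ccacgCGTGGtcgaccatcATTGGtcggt
CANX: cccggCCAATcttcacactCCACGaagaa
XBP1: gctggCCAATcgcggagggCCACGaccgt
SDF2L1: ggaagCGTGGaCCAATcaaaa
HERPUD1: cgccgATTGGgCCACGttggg

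In the order printed, these stretches lie at chr9:125241386-125241414 (minus strand), chr12:103930211-103930239, chr12:103930316-103930344, chr19:12938379-12938407, chr5:179698773-179698801, chr22:28800598-28800626 (minus strand), chr22:21642109-21642129 and chr16:56932020-56932040, on the plus strand unless stated. Those of *HSP90B1* and *CANX* overlap an exon of a GENCODE release 29 transcript, and the others lie outside annotated exons. The ERSE of *XBP1* lay at positions -52 to -34 from the start and that of *HSPA5* at -66 to -48. *CANX* has several RefSeq starts, and its ERSE lay at -151 to -133, -189 to -171 or -9 to 9, depending on the start. *HSP90B1* was the only one of the 10 genes with a pair of exact ERSE matches, at -194 to -176 and at -89 to -71. Copies of the element that differ by a letter were not searched for, in *HSPA5* or elsewhere. The CCACG part on its own, which overlaps each full element, was found in 38.1% of all windows. By gene, it was found in 42.1% of all genes with a window and in 9 of the 10. A 6-letter core, TGACGT, was found in 7.98% of all windows and 9.64% of all genes with a window, and in *HSPA5* and *ATF6*. The 250 bases before the *HSPA5* start, chr9:125241344-125241593 on the minus strand, show both in their setting, with the core and both ERSE parts in capitals.
HSPA5, 250 bases before the start: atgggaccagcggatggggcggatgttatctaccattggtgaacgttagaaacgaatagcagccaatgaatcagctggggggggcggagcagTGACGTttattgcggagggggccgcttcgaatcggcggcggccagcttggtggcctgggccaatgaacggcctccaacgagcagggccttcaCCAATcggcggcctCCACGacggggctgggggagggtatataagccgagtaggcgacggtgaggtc

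**Figure D1:**
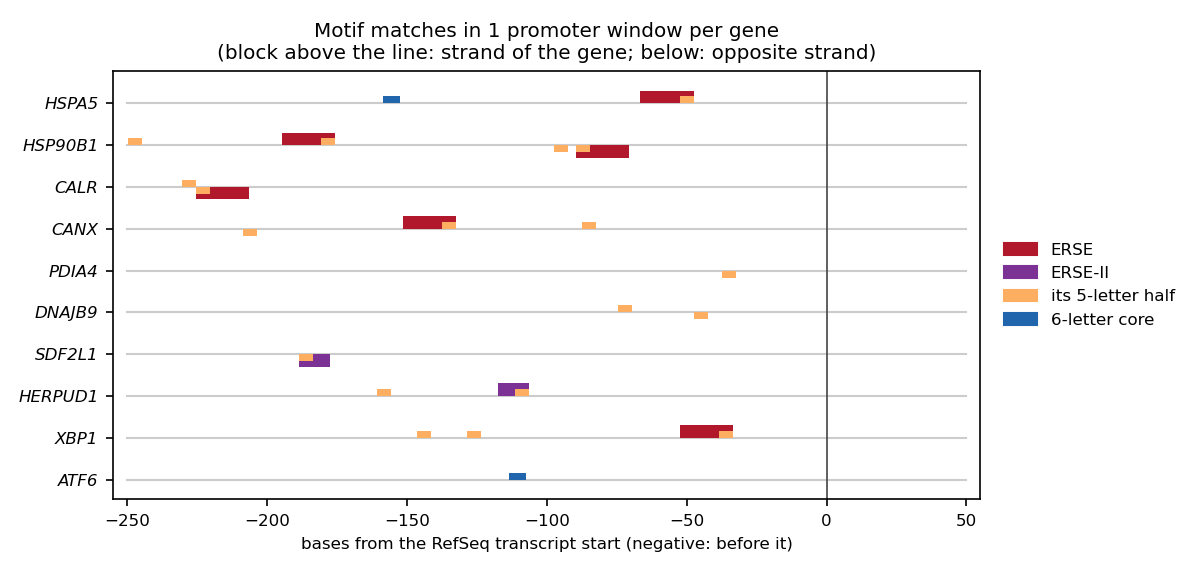
Motif matches in 1 RefSeq promoter window per gene, by distance in bases from the transcript start. Blocks above a line lie on the strand of the gene and blocks below it on the opposite strand. The ERSE and ERSE-II matches of 7 genes lie before the start, and *PDIA4*, *DNAJB9* and *ATF6* show none.

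The genes lie on several chromosomes, given here with the identifiers of the files and positions of GENCODE release 29 on GRCh38. *HSPA5* (ENSG00000044574.8, chr9:125234853-125241330, minus strand) encodes BiP, the ER member of the Hsp70 family and a restraint on the sensors. *HSP90B1* (ENSG00000166598.15, chr12:103930107-103953645, plus strand) encodes GRP94, the Hsp90 of the ER. *CALR* (ENSG00000179218.13, chr19:12938578-12944489, plus strand) and *CANX* (ENSG00000127022.15, chr5:179678628-179730925, plus strand) encode calreticulin and calnexin, the lectin chaperones that hold glycoproteins. *PDIA4* (ENSG00000155660.11, chr7:149003062-149028641, minus strand) encodes ERp72, a protein disulfide isomerase. *DNAJB9* (ENSG00000128590.5, chr7:108569568-108574850, plus strand) encodes ERdj4, a cochaperone of BiP that restrains IRE1, and *SDF2L1* (ENSG00000128228.5, chr22:21642261-21644298, plus strand) a further partner of BiP. *HERPUD1* (ENSG00000051108.15, chr16:56932048-56944863, plus strand) encodes a scaffold of ER-associated degradation. *XBP1* (ENSG00000100219.16, chr22:28794555-28800597, minus strand) and *ATF6* (ENSG00000118217.6, chr1:161766294-161964070, plus strand) encode the transcription factors described above. The start of *DNAJB9* overlaps *PNPLA8* and *THAP5*, and *HSP90B1* overlaps *C12orf73* and *TTC41P*, all on the opposite strand; how strand was handled in quantification is not given in the sources used here, so reads from shared stretches cannot be told apart.

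The depth, estimated from the spacing of the low values, was 9.30 to 13.6 M reads per sample, at which 3 reads correspond to 0.227 to 0.329 CPM; these floors cover counting error only. The targeted gene *PIKFYVE* stood at 101 and 97.5 CPM in the sgNC samples and at 10.9 and 12.5 CPM in the sgPIKFYVE-1 samples, so its mean fell by 88.2%. Of 12 neuroendocrine and epithelial markers, 11 averaged 1 CPM or more in both tables, with *NEUROD1* at most at 0.70 CPM, and the list summed to 8519 to 11755 CPM per sample. Of 10 markers of blood, endothelium and fibroblasts, 2 did so, the list summed to 4.27 to 16.8 CPM, and *CD3E* and *LUM* were at 0 in every sample. *COL1A1*, a collagen gene of that list, averaged 9.53 CPM with sgNC and 6.42 CPM with sgPIKFYVE-1. Of 11 neuroendocrine and epithelial markers tested, 2 were higher and 3 lower in the knockdown, 2 and 2 under apilimod, and 5 and 3 under Torin-1 (limma, adjusted p under 0.05). Over all genes tested, 21.6% were higher and 20.9% lower in the knockdown, 5.75% and 2.79% under apilimod, and 16.6% and 21.8% under Torin-1. Among the markers *CHGB*, which encodes the granule protein secretogranin-1, fell by 37.3% in the knockdown, where *CDH1* rose by 20.6%. Under Torin-1 the transcription factor gene *INSM1* rose by 79.7% and *KRT8* fell by 18.7%. The part of these shifts in the results below was not tested.

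Per kilobase of merged exons, *HSPA5*, *CALR*, *PDIA4* and *HSP90B1* stood highest in all 5 groups, with *XBP1* next and the other 5 genes below it. In the sgNC samples *HSPA5* led with 363 and 372 CPM per kb, followed by *CALR* with 290 and 312, *PDIA4* with 250 and 261, and *HSP90B1* with 231 and 246. *XBP1* followed with 106 and 109 CPM per kb, *DNAJB9* with 38.5 and 42.8, and *SDF2L1* with 24.6 and 25.6. *HERPUD1* had 20.2 and 23.6, *CANX* 19.2 and 19.9, and *ATF6* 17.1 and 18.0 CPM per kb. No neighbors in this order overlapped in the sgNC samples. In DMSO, *CALR* led with 274 and 275 CPM per kb, ahead of *HSPA5* with 214 and 216. *SDF2L1*, at 17.9 and 25.5 CPM per kb, overlapped *DNAJB9*, at 19.6 and 20.1. *CALR* also led in the sgPIKFYVE-1 samples, with 342 and 360 CPM per kb against 279 and 285 for *HSPA5*, and under Torin-1 *HSPA5* led again with 238 in both samples, against 219 and 226 for *CALR*. The order depends on the length used: per kilobase of the longest transcript *CALR* led in both control groups, and 4 of the 10 genes in sgNC and 5 in DMSO kept their rank.

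**Figure D2:**
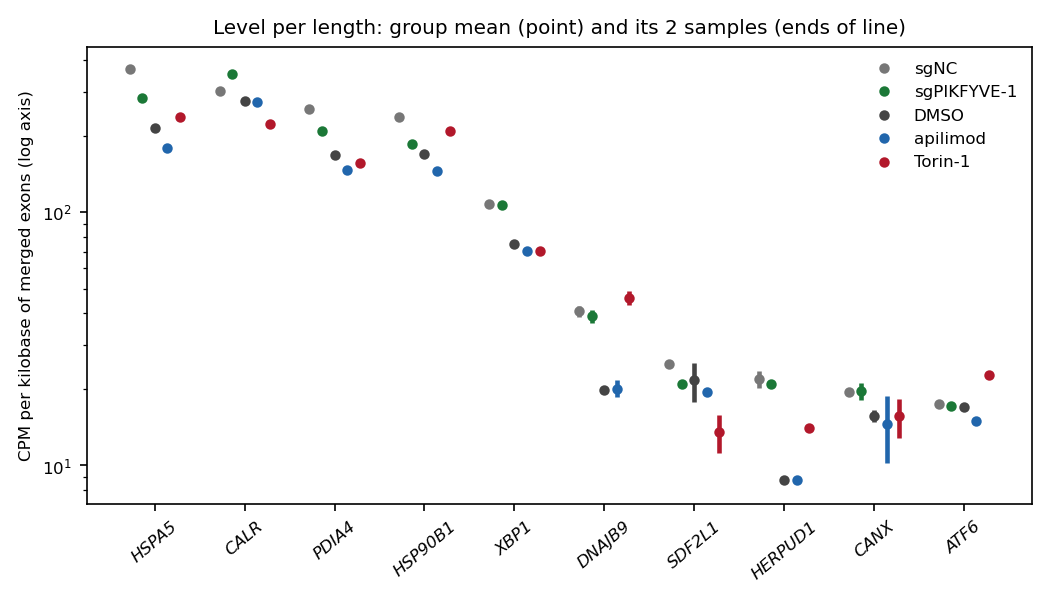
CPM per kilobase of merged exons on a log axis for the 10 genes, ordered by their level in sgNC; points are group means and line ends the 2 samples. Genes from *HSPA5* to *XBP1* lie above the other 5 in every group, and *CANX* under apilimod has the widest line, from 10.3 to 18.9.

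Knockdown of *PIKFYVE* was accompanied by lower *HSPA5*, *HSP90B1* and *PDIA4* and by higher *CALR*. Of the 10 genes, 1 was higher and 3 were lower at an adjusted p under 0.05 (limma, Benjamini-Hochberg over 13591 genes), where 21.6% of all genes tested were called higher and 20.9% lower. The count is therefore close to the background, and the genes are described one by one. In bulk RNA, fewer cells of a kind and less RNA per cell cannot be told apart.

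*HSPA5* had 1418 and 1455 CPM in the sgNC samples and 1090 and 1113 CPM in the sgPIKFYVE-1 samples. Both knockdown samples lay below both controls, and the mean fell by 23.3% (log2 fold change -0.38, standard error 0.04, adjusted p = 1.53e-07). *HSP90B1*, the partner chaperone, had 1084 and 1154 CPM in control and 842 and 908 CPM in knockdown samples, again without overlap. The mean fell by 21.8% (log2 fold change -0.35, adjusted p = 3.03e-06). The isomerase gene *PDIA4* went from 819 and 855 CPM to 685 and 688 CPM, and its mean fell by 18.0% (adjusted p = 1.36e-05). An ERSE was found in the windows of *HSPA5* and *HSP90B1* and not in that of *PDIA4*. *CALR* moved the other way, from 786 and 846 CPM to 929 and 976 CPM, a mean rise of 16.7% (log2 fold change 0.22, standard error 0.04, adjusted p = 0.000432). The rise of *CALR* was no longer called when the variance was not modeled as a trend with expression (adjusted p = 0.108).

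The other lectin chaperone, *CANX*, did not pass the test: 124 and 120 CPM in control samples and 133 and 113 CPM in knockdown samples, with overlapping groups. *SDF2L1* had 28.1 and 27.0 CPM against 23.9 and 22.2 CPM; the groups did not overlap, but the difference of -0.25 on the log2 scale missed the threshold (adjusted p = 0.075). The stress-inducible genes *DNAJB9* and *HERPUD1* overlapped between the groups. *DNAJB9* had 109 and 121 CPM in control and 103 and 117 CPM in knockdown samples, and *HERPUD1* 104 and 122 CPM against 110 and 105 CPM. Values for *XBP1* were nearly identical, 320 and 330 CPM against 325 and 325 CPM, with a 95% interval of the log2 fold change from -0.10 to 0.09. *ATF6*, with 142 and 135 CPM against 135 and 136 CPM, had an interval from -0.15 to 0.08.

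Apilimod at 1 µM was followed by lower values of *HSPA5*, *HSP90B1* and *PDIA4*, by 12.5% to 16.5% of the DMSO mean. Of the 10 genes, 0 were higher and 3 were lower, where 5.75% of 13520 genes tested were called higher and 2.79% lower (limma, adjusted p under 0.05). At this adjusted threshold the share of lower genes among the 10 thus lay above the background. At an unadjusted p under 0.05, 0 were higher and 4 lower, *ATF6* being the one added. The share of all genes at the unadjusted threshold is not given, so that count has no background. With quantile normalization, the share of higher genes among all called genes went from 67.4% to 55.1%.

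*HSPA5* had 844 and 836 CPM in DMSO and 705 and 698 CPM under apilimod, without overlap, and its mean fell by 16.5% (log2 fold change -0.26, standard error 0.04, adjusted p = 0.000348). *HSP90B1* had 801 CPM in both DMSO samples and 685 and 683 CPM under apilimod, so that the spread within each group was far smaller than the difference of -0.23 on the log2 scale (adjusted p = 0.00184). *PDIA4* had 554 and 546 CPM against 485 and 477 CPM (log2 fold change -0.19, adjusted p = 0.00891). Its call was lost without DMSO replicate 1, DMSO replicate 2 or apilimod replicate 2, with log2 fold changes of -0.18, -0.20 and -0.18 and adjusted p of 0.135, 0.0809 and 0.0617, and also with no filter on low values (adjusted p = 0.0567). Without the variance trend none of the 3 genes was called (adjusted p 0.111 for *HSPA5*, 0.16 for *HSP90B1* and 0.202 for *PDIA4*). Dropping the trend cannot alter the size of a difference. Over the alternatives other than leaving out a sample, log2 fold changes ranged from -0.305 to -0.26 for *HSPA5* and from -0.303 to -0.228 for *HSP90B1*. For *PDIA4* they ranged from -0.254 to -0.192.

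*ATF6*, with 132 and 136 CPM in DMSO and 118 in both apilimod samples, missed the threshold (log2 fold change -0.18, adjusted p = 0.078) and passed it with quantile normalization (adjusted p = 0.0483) and with a replicate block (adjusted p = 0.0209). *CALR*, the gene that was higher in the knockdown, had 746 and 744 CPM in DMSO and 742 and 732 CPM under apilimod, with a 95% interval from -0.10 to 0.07. *XBP1* had 227 and 225 CPM against 212 and 214 CPM and did not pass the test (adjusted p = 0.363). *DNAJB9* had 57.1 and 55.7 CPM in DMSO and 52.8 and 61.5 CPM under apilimod, and *HERPUD1* 46.6 and 43.8 CPM against 45.4 and 44.8 CPM; both overlapped between groups. *SDF2L1* ranged from 19.7 to 28.0 CPM in DMSO, a range that enclosed both apilimod samples. *CANX* differed more between the apilimod samples, 118 and 64.0 CPM, than did the means of any 2 groups of that table, and without apilimod replicate 1 it was called lower (log2 fold change -0.60, adjusted p = 0.0337). The knockdown and apilimod thus shared lower *HSPA5*, *HSP90B1* and *PDIA4*, and the difference between their effects on *CALR* was not tested, since the tables were normalized apart.

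Torin-1 at 100 nM gave the largest single difference against a control, that of *DNAJB9*. *DNAJB9*, *HERPUD1*, *ATF6*, *HSP90B1* and *HSPA5* were higher and *SDF2L1* and *CALR* lower than in DMSO. These are 5 genes higher and 2 lower of 10, where 16.6% of 13520 genes were called higher and 21.8% lower (limma, adjusted p under 0.05). The share of higher genes lay above the background, and that of lower genes lay near it.

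The BiP cochaperone gene *DNAJB9* had 57.1 and 55.7 CPM in DMSO and 122 and 138 CPM under Torin-1. Both treated samples exceeded both DMSO samples, with a ratio of means of 2.30 (log2 fold change 1.19, standard error 0.09, adjusted p = 1.97e-07). *HERPUD1* rose by 60.4%, from 46.6 and 43.8 CPM to 69.9 and 75.1 CPM (log2 fold change 0.67, adjusted p = 2.06e-05). The sensor gene *ATF6* rose by 34.0%, from 132 and 136 CPM to 174 and 184 CPM (log2 fold change 0.42, adjusted p = 7.98e-05). All 3 stood apart from DMSO by more than the spread of either group. Of these genes, a full element was found only in the *HERPUD1* window, an ERSE-II.

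Among the chaperones, *HSP90B1* went from 801 CPM in both DMSO samples to 961 and 1011 CPM, a rise of 23.1% (adjusted p = 5.23e-05). *HSPA5* had 931 and 932 CPM under Torin-1 against 844 and 836 CPM, a smaller rise of 10.8% (adjusted p = 0.00648). This call was lost without DMSO replicate 1 (log2 fold change 0.16, adjusted p = 0.0536), without DMSO replicate 2 (0.14, adjusted p = 0.077) and without the variance trend (adjusted p = 0.136). *CALR* fell by 18.8%, from 746 and 744 CPM to 596 and 614 CPM (log2 fold change -0.30, adjusted p = 4.73e-05). *SDF2L1* fell by 37.6%, from 28.0 and 19.7 CPM to 12.3 and 17.4 CPM (log2 fold change -0.64, adjusted p = 0.00859). Its call did not hold without DMSO replicate 1 (log2 fold change -0.40, adjusted p = 0.124) or without Torin-1 replicate 1 (-0.41, adjusted p = 0.0935), nor with no filter on low values (adjusted p = 0.0796) or no variance trend (adjusted p = 0.0735). *PDIA4* had 520 and 509 CPM under Torin-1 against 554 and 546 CPM and missed the threshold (log2 fold change -0.10, adjusted p = 0.0836). *XBP1*, with 208 and 219 CPM against 227 and 225 CPM, and *CANX*, with 114 and 80.4 CPM against 103 and 92.4 CPM, did not pass the test either.

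**Figure D3:**
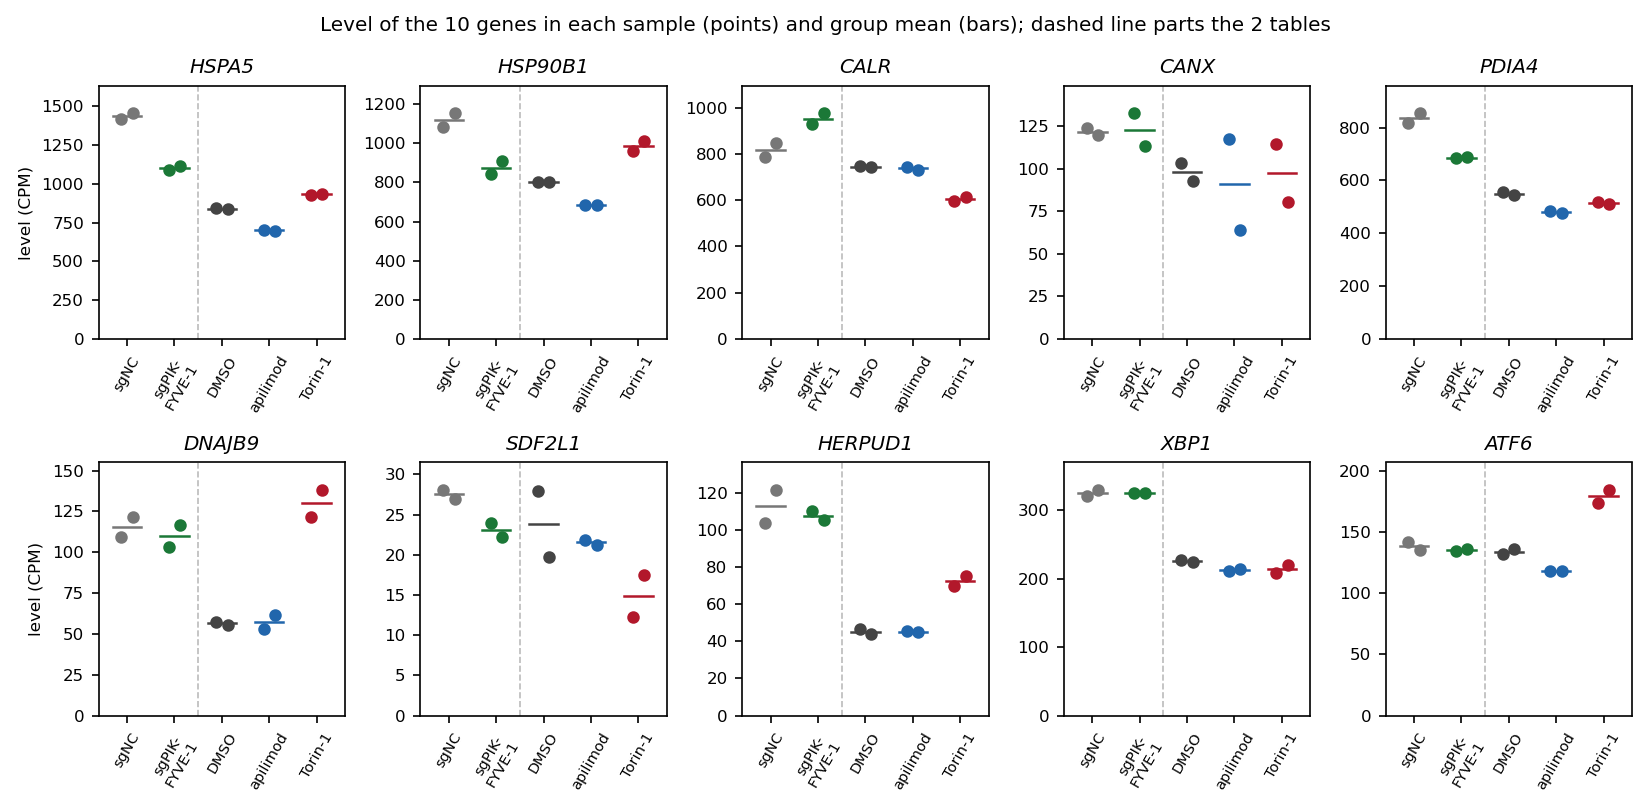
Level in CPM of the 10 genes in each of the 10 samples (points) with group means (bars); a dashed line parts the separately scaled knockdown and drug tables. *HSPA5*, *HSP90B1* and *PDIA4* are lower with sgPIKFYVE-1 and apilimod than in their controls, and *DNAJB9*, *HERPUD1* and *ATF6* are highest within the drug table under Torin-1.

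Both drug comparisons share the DMSO samples, so the drugs were also compared directly. Against Torin-1, apilimod samples had 2 of the 10 genes higher and 5 lower, where 26.2% of genes were called higher and 20.5% lower (limma, adjusted p under 0.05). *DNAJB9* had 52.8 and 61.5 CPM under apilimod against 122 and 138 CPM under Torin-1, a log2 difference of -1.17 (standard error 0.09). *HERPUD1* differed by -0.67, *ATF6* by -0.60, *HSP90B1* by -0.53 and *HSPA5* by -0.41 on the same scale, without overlap of the groups. *CALR* was higher under apilimod by 0.28 and *SDF2L1* by 0.53; the latter call was lost without Torin-1 replicate 1, apilimod replicate 1 or apilimod replicate 2 (log2 differences 0.29, 0.51 and 0.55, adjusted p 0.207, 0.0804 and 0.06), and with no filter on low values (adjusted p = 0.12) or no variance trend (adjusted p = 0.103). *XBP1*, with 212 and 214 CPM under apilimod and 208 and 219 CPM under Torin-1, had an interval of the difference from -0.12 to 0.10. *PDIA4* missed the threshold with a log2 difference of -0.10 (adjusted p = 0.0712), which became -0.19 with quantile normalization (adjusted p = 0.00157). For *CANX* the interval was wide, from -0.58 to 0.29, and without apilimod replicate 1 the difference was -0.58 (adjusted p = 0.00812).

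**Figure D4:**
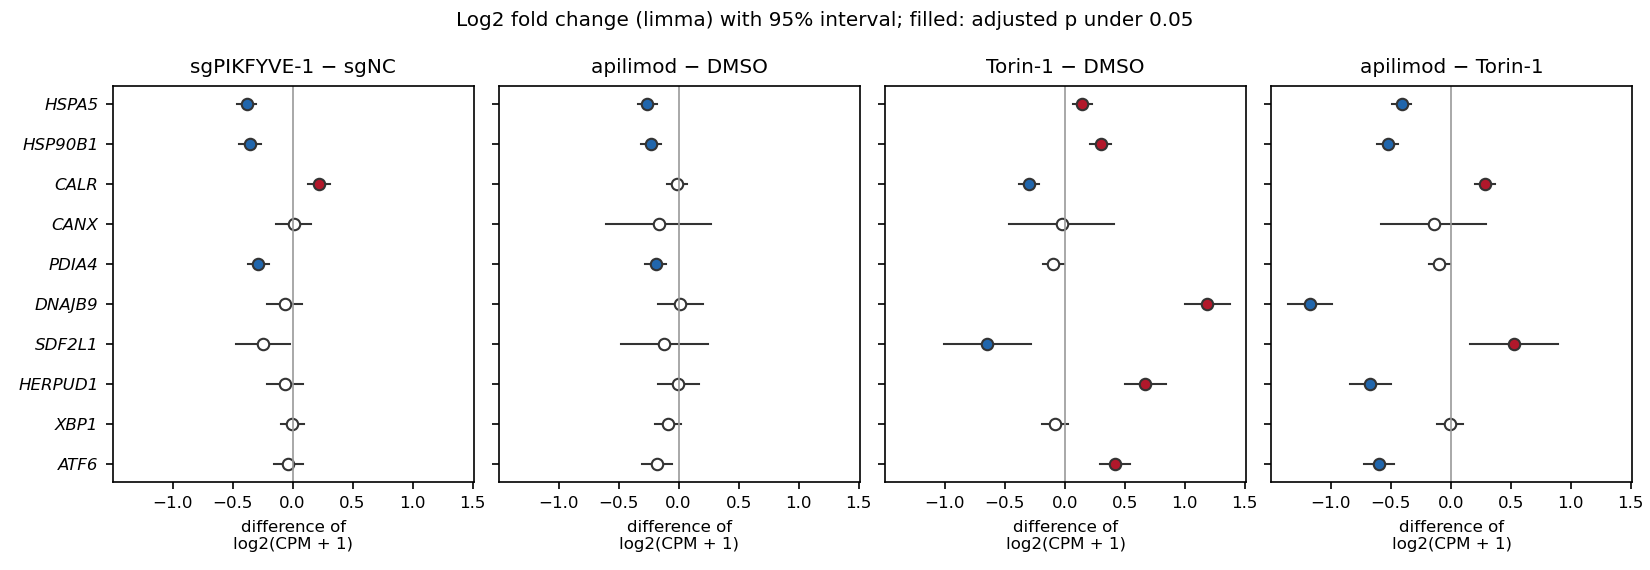
Log2 fold changes of the 10 genes with 95% intervals from limma in 4 comparisons, on the scale of log2(CPM + 1); filled points passed an adjusted p under 0.05. *DNAJB9* under Torin-1 has the largest difference, 1.19, and *CANX* has the widest intervals in the drug table.

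Across all 10 samples, each taken as the difference from the control mean of its own table, *HSPA5* and *HSP90B1* had a Pearson r of 0.97, *DNAJB9* and *HERPUD1* 0.98, and *DNAJB9* and *ATF6* 0.92. *CALR* ran opposite to *HSPA5*, with r of -0.81. These values describe 10 samples in 5 groups. Samples of the same table share a control group and may share library preparation. Among 9840 genes that averaged 10 CPM or more in both tables, the 10 genes most like *HSPA5* were *DAPK1*, *EGR1*, *TCEA2*, *TXNIP*, *RANBP2*, *SSR2*, *OSBPL10*, *MSN*, *PHLDA1* and *MYEF2*, with r from 0.991 down to 0.983. Of these, *SSR2*, a subunit of the translocon-associated complex, belongs to the lists of ER genes used here. *HSP90B1* ranked 34 and *PDIA4* ranked 1114. The 5 genes most like *ATF6* were *PROX1*, *CRIPT*, *INSM1*, *PCSK1* and *SEPSECS*, with r from 0.997 to 0.993, and *DNAJB9* ranked 239.

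The wider machinery was described with lists of genes that hold none of the 10. Their counts at an adjusted p under 0.05 are to be read against the shares of all genes called higher and lower at that threshold. These shares were 21.6% and 20.9% in the knockdown, 5.75% and 2.79% with apilimod, and 16.6% and 21.8% under Torin-1. Counts at an unadjusted p have no such share beside them. The other ER chaperones and cochaperones, 22 genes, moved in both directions in the knockdown, with 3 higher and 7 lower. The lowest was *FKBP10*, a prolyl isomerase for collagens, which fell by 29.2%. Under Torin-1, 3 were higher and 5 lower, with *DNAJC3*, which encodes the BiP cochaperone p58IPK, higher by a log2 fold change of 0.33 and the prolyl isomerase gene *FKBP2* at -0.43. With apilimod, 0 were higher and 1 was lower, *PPIB*, with a log2 fold change of -0.19 (limma). At an unadjusted p under 0.05, 1 was higher and 5 were lower. The call of *PPIB* was lost without the variance trend and in several fits with 1 sample left out. Over all fits with 1 sample left out its log2 fold change ranged from -0.205 to -0.182. Medians lay at -0.02, -0.09 and -0.11 in the knockdown, Torin-1 and apilimod comparisons, against -0.0042, -0.012 and -0.0057 over all genes tested.

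Of 18 protein disulfide isomerases and oxidases, 4 were higher and 7 lower in the knockdown (21.6% and 20.9% of all genes), 0 and 2 with apilimod (limma; 0 and 3 at an unadjusted p under 0.05), and 3 and 5 under Torin-1. *ERO1B*, an oxidase that recharges disulfide isomerases and is abundant in endocrine pancreas, was called in each. It had 74.1 and 73.8 CPM with sgNC and 49.4 and 48.6 CPM with sgPIKFYVE-1, a log2 fold change of -0.58. In the drug table it had 40.9 and 40.7 CPM in DMSO, 28.2 and 29.7 CPM under apilimod and 56.6 and 58.6 CPM under Torin-1. *ERO1B* was thus lower with the knockdown and apilimod and higher under Torin-1, as were *HSP90B1* and *HSPA5*. The related oxidase gene *ERO1A* fell by 34.8% in the knockdown, and the membrane thioredoxins *TMX2* and *TMX4* rose by 56.6% and 51.8%.

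ER-associated degradation, in which misfolded proteins are drawn out of the ER and passed to the proteasome, was called in 12 of 26 genes under Torin-1, with 9 higher and 3 lower, against 16.6% and 21.8% of all genes. *SYVN1*, the ubiquitin ligase at the core of the pathway, rose from 43.5 and 41.8 CPM to 87.5 and 84.6 CPM, a ratio of means of 2.02. *DERL3*, at 0.72 and 1.04 CPM in DMSO and 4.38 and 2.72 CPM under Torin-1, had a log2 fold change of 1.25 at a low level. The genes called lower included *UBE2G2*, a ubiquitin-conjugating enzyme, which fell by 33.6%, and *VCP*, the extracting ATPase, which fell by 31.6%. In the knockdown 4 of 25 genes were higher and 6 lower, with *EDEM1*, a mannosidase-like factor of the pathway, down by a log2 fold change of -0.41. Apilimod had 0 higher and 1 lower of 26 (limma; 2 and 1 at an unadjusted p under 0.05).

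Translocation and N-glycosylation, the steps that bring proteins into the ER and add sugar chains, had 1 gene higher and 10 lower of 29 in the knockdown, where 21.6% and 20.9% of all genes were called. It had 1 and 2 with apilimod (limma, adjusted p under 0.05), against 5.75% and 2.79%, and 9 and 5 under Torin-1. At an unadjusted p under 0.05 the apilimod counts were 1 and 9, for which no share of all genes is given. Glucosidase I (*MOGS*) fell by 31.9% in the knockdown. Under Torin-1 the translocation factor *SEC63* rose by 26.4%, and the oligosaccharyltransferase subunits *DAD1* and *RPN2* fell by 27.4% and 25.4%.

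The list of sensors and factors of the response showed its highest share of higher genes under Torin-1: 7 higher and 1 lower of 12, with a median log2 fold change of 0.40. *ERN1*, which encodes IRE1, and *EIF2AK3*, which encodes PERK, were singled out after their values were seen, since they are the sensors beside ATF6. *ERN1* had 171 and 162 CPM in DMSO and 371 and 366 CPM under Torin-1 (log2 fold change 1.14, adjusted p = 1.86e-09). *EIF2AK3* went from 44.9 and 44.4 CPM to 67.5 and 69.4 CPM (log2 fold change 0.60, adjusted p = 4.49e-05). Together with *ATF6*, the genes of all 3 sensors were thus higher under Torin-1. *BHLHA15*, a secretory cell transcription factor, was also higher, from 1.90 and 2.57 CPM to 6.61 and 6.55 CPM. In the knockdown, 3 of these 12 genes were higher and 1 lower; *ERN1* fell by 25.5%, from 266 and 270 CPM to 201 and 199 CPM, while *EIF2AK3* had a log2 fold change of -0.01. Apilimod had 0 higher and 2 lower (limma), and 1 and 3 at an unadjusted p under 0.05. *EIF2AK3* was not called under apilimod, with a log2 fold change of 0.21. The genes called lower include *ERN1*, with a log2 fold change of -0.21. Its call was lost without any one of the DMSO or apilimod samples (log2 fold changes from -0.24 to -0.17). It was also lost with no filter on low values (adjusted p = 0.0736) or no variance trend (adjusted p = 0.195).

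The list named for the PERK branch holds 12 genes that include ATF4 and its targets. In the knockdown 8 were higher and 0 lower (median 0.36), with apilimod 5 and 0 (0.29), and under Torin-1 4 and 3 (-0.09). At an unadjusted p under 0.05 (limma), 0 were lower in the knockdown and 0 with apilimod. *DDIT3*, which encodes the transcription factor CHOP, had 24.3 and 25.3 CPM with sgNC and 49.4 and 50.6 CPM with sgPIKFYVE-1. *TRIB3*, a pseudokinase gene of the same list, had 21.2 and 19.0 CPM in DMSO and 55.3 and 59.8 CPM under apilimod. In the same samples *HSPA5*, *HSP90B1* and *PDIA4* were lower. The genes called in this list and these ER genes thus differed in opposite directions in the knockdown and under apilimod. PERK activity was not measured, and in the knockdown the *ATF4* mRNA was not called (log2 fold change -0.02). Under Torin-1, *DDIT3* was higher by a log2 fold change of 0.61, while the ATF4 target *ASNS*, asparagine synthetase, fell by 32.0%.

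Chaperones outside the ER gave a reference. Of 15 cytosolic chaperones, 10 were higher and 1 lower in the knockdown, 0 and 0 with apilimod (limma; 0 and 2 at an unadjusted p under 0.05), and 0 and 13 under Torin-1, with medians of 0.30, -0.04 and -0.78. *HSP90AA1*, the inducible cytosolic Hsp90, fell by 59.0% under Torin-1 and the Hsp40 gene *DNAJA1* by 62.1%, in samples in which *HSP90B1* was higher. Of 13 mitochondrial chaperones and proteases, 7 were higher and 1 lower in the knockdown and 0 and 5 under Torin-1 (limma; 1 and 6 at an unadjusted p under 0.05), while apilimod had 1 and 0. The chaperonin genes *HSPD1* and *HSPE1* rose by 56.9% and 61.5% in the knockdown and fell by 31.1% and 54.2% under Torin-1.

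**Figure D5:**
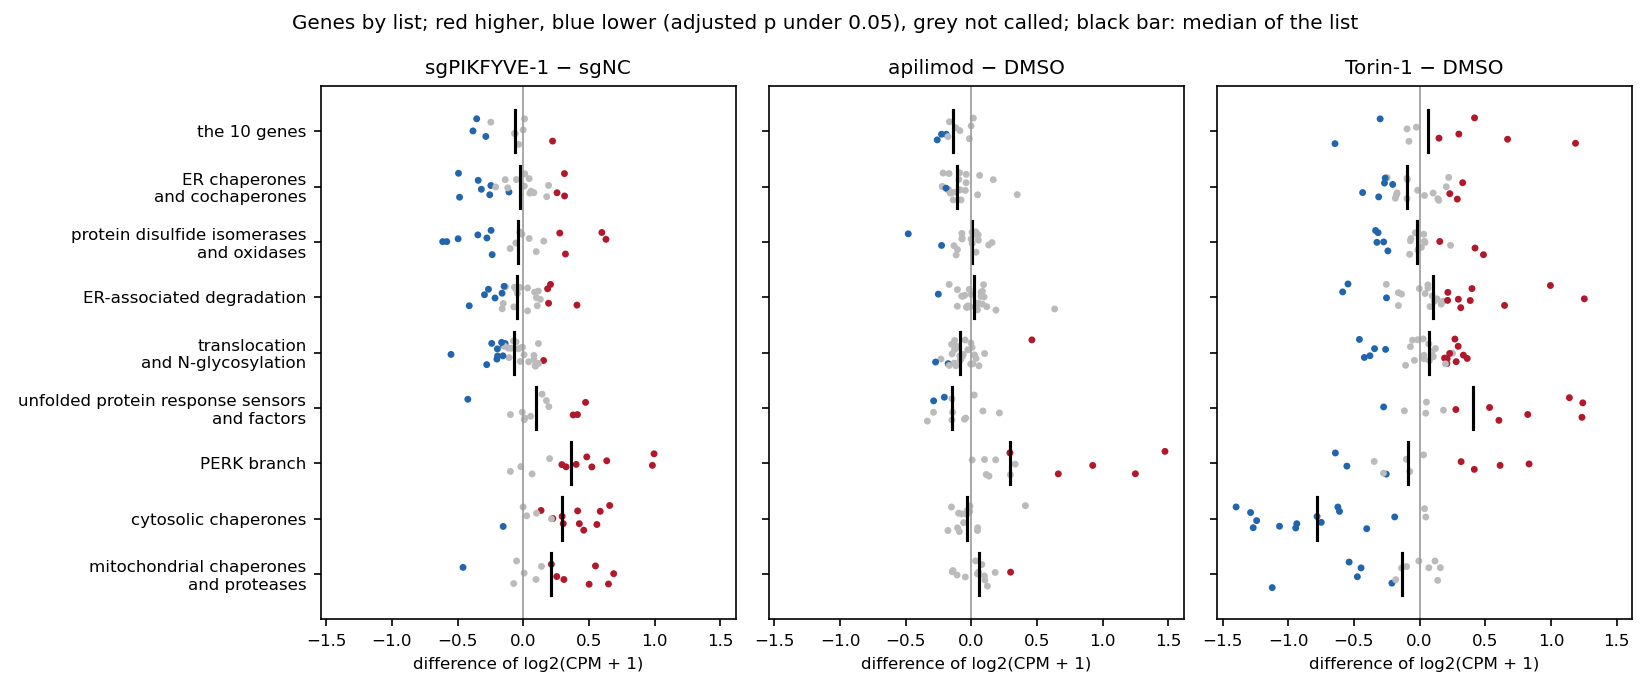
Log2 fold changes of the 10 genes and of 8 lists of related genes in the knockdown, apilimod and Torin-1 comparisons; each point is a gene, colored where an adjusted p was under 0.05, and black bars are list medians. Under Torin-1 the sensors and factors have a median of 0.40 and the cytosolic chaperones one of -0.78.

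An ERSE or ERSE-II was found in the RefSeq window of 44 genes in all, 7 of them among the 10. Of the other 37, 24 were tested: 2 were higher and 8 lower in the knockdown, 1 and 3 with apilimod, and 5 and 6 under Torin-1, with medians of -0.10, -0.06 and -0.02. Over all genes tested, 21.6% were higher and 20.9% lower in the knockdown, 5.75% and 2.79% with apilimod, and 16.6% and 21.8% under Torin-1. No test was made of these shares. Some of the 24 genes tested were named after their values were seen. *FICD*, which modifies BiP, had 20.4 and 19.3 CPM with sgNC and 13.5 and 12.2 CPM with sgPIKFYVE-1. In the drug table it had 10.1 and 9.12 CPM in DMSO, 17.4 and 16.3 CPM under Torin-1 and 7.76 and 8.24 CPM under apilimod. It was not called under apilimod (limma, log2 fold change -0.23, adjusted p = 0.376). *ERO1B* also held an ERSE. *HYOU1*, the nucleotide exchange factor of BiP, held an ERSE-II and did not pass the test in the knockdown, with apilimod or under Torin-1 (log2 fold changes -0.05, -0.18 and 0.15), though it passed in both drug comparisons with quantile normalization or a replicate block. Genes with the element were thus found higher, lower and not called in the same comparison.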

How the data were processed

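RNA-seq values of 10 QGP-1 samples, 2 per group, were analysed. After trimming with Trimmomatic, the authors quantified reads per transcript, added these up by gene and scaled them by the TMM method in edgeR. The deposited values are therefore a normalized signal on the CPM scale, in 2 separately scaled tables whose samples sum to 972493 to 1024332. The submitters' processing notes name hg38, bcl2fastq 2.20 and FastQC; the quantifier and annotation are not given in the sources used here. The labels describe depletion of ribosomal RNA, the methods oligo(dT) selection. Of the values worth up to 10 reads, only 70.6% to 73.1% were whole numbers of reads within 0.02 of a read, so counts could not be recovered and no count test was run.

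A gene entered the fit where it averaged 1 CPM or more over its table. Values were tested as log2(CPM + 1) using limma (3.58.1, under R 4.3.3), with a two-sided moderated test, a variance trend, Benjamini-Hochberg adjustment over all genes and a threshold of 0.05; the knockdown fit had 4 samples and the drug fit 6. Intervals are limma's, per gene and not adjusted. A pseudocount of 1 understates changes of low genes. The procedure was tested on simulated data. Named were the 10 genes in every comparison and, per list, up to 2 highest and 2 lowest called genes whose groups did not overlap, of which the text gives a part; exceptions are marked. The members and lists were chosen with earlier results of these data known. Alternatives were a pseudocount of 0.1, no filter, quantile normalization, the replicate number as a block, a constant prior variance (no trend), fits of the compared groups alone, and each sample left out in turn. Levels per kilobase used GENCODE release 29 exons. No replicates were identical; their median chi-square over the Poisson expectation was 1.86 to 2.72. Figures were drawn with matplotlib in Python.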

Additional observations from a re-analysis of the deposited data

How the results depend on the processing

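With 2 samples per group, the precision rests on the variance that limma shares across genes. Without the variance trend, 3709 genes were called in the knockdown in place of 5772, and 466 under apilimod in place of 1155; of the 10 genes, 0 were then called under apilimod. Without the filter on low values, 565 genes were called under apilimod. The replicate block gave 1756 genes under apilimod. Same-numbered samples deviated together only weakly (correlations 0.037 to 0.104), so the numbers do not show a pairing; the block added *ATF6* under apilimod and *PDIA4* under Torin-1 and in the direct comparison. With 1 sample left out, 596 to 1315 genes were called under apilimod: 656 and 596 without DMSO replicates 1 and 2, and 688 without apilimod replicate 1. A pseudocount of 0.1 and fits of the compared groups alone changed no call among the 10 genes.

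Over the 10 genes, 423 of 450 alternative values stayed on their side of the threshold, 20 lost the call and 7 gained it. Many of the 450 values could not differ in fold change or sign from the main fit. This holds for no trend, no filter, the replicate block and fits of the compared groups alone. It also holds where the sample left out belonged to a group outside the comparison. The sign changed in 23 values, 20 with 1 sample left out and 3 with quantile normalization. Of these 23, 0 were called, and 13 moved by 1 standard error or less. For the other 10, the log2 fold change with 1 sample left out ranged from -0.10 to 0.12 for *CANX*, -0.154 to 0.021 for *DNAJB9* and -0.176 to 0.051 for *HERPUD1* in the knockdown; from -0.60 to 0.27 for *CANX*, -0.093 to 0.122 for *DNAJB9* and -0.36 to 0.12 for *SDF2L1* under apilimod; from -0.28 to 0.23 for *CANX* under Torin-1; and from -0.58 to 0.29 for *CANX* between the drugs. A lone sample left in a group is assumed to vary like the other groups. The cause was not tested.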
